A study of Homo sapiens with 6 samples.

Results

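FOXA1, HOXB13, GATA2, SPDEF and GRHL2 are transcription factors of the luminal, secretory lineage of the prostate. They were chosen by symbol, and all 5 were listed in every library, among 17602 genes in the SR2211 experiment, 16293 in the XY011 experiment and 22642 in the ENZ experiment. RNA-seq was done on C4-2B, an established human prostate cancer line that derives from LNCaP and metastasises to bone. All groups were grown with serum that was mostly charcoal-stripped, which lowers steroids. They received vehicle, SR2211 at 5 µM, XY011 at 5 µM or enzalutamide (ENZ, also MDV3100) at 20 µM, and RNA was taken at 48 h. SR2211 is an inverse agonist of a nuclear receptor, XY011 is known here by its code name alone, and ENZ blocks androgen signalling. The series asks what that nuclear receptor does in castration-resistant prostate cancer. Each compound had a vehicle library of its own, which gives 3 experiments, 6 libraries and 1 library per group in 1 cell line. The labels of the XY011 library disagree on its code, since its title names XY011 and its extraction protocol another code. For the ENZ libraries that protocol speaks of SR2211. Groups follow titles and agents.

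Luminal identity in the prostate is held by a small set of factors that bind enhancers together with steroid receptors. FOXA1 is a pioneer factor of the forkhead family that opens closed chromatin. GATA2 is a zinc finger factor that acts at androgen-responsive enhancers, and HOXB13 is a posterior homeobox factor that marks prostate tissue. SPDEF is an ETS family factor of secretory epithelia, and GRHL2 is a grainyhead factor that maintains epithelial junction genes.

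4 of the 5 genes moved with the class formed by SR2211 and XY011, but not all in 1 direction, in a limma fit where 9.42% of all genes rose and 13.7% fell. The count of 4 went to 0 with a pseudocount of 0.1 and to 1 with all 3 compounds as a class. FOXA1, HOXB13 and SPDEF fell, GATA2 rose, and GRHL2 missed the threshold. With ENZ, SPDEF alone passed the rule on size, and GATA2 was just short of it. GATA2, whose level was below those of FOXA1, HOXB13 and SPDEF in every vehicle, was the highest of the 5 in both the SR2211 and the XY011 library.

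The promoters of FOXA1, SPDEF and GATA2 are shown because these genes of 1 lineage changed together but not in 1 direction. Each is the 250 bases before a transcription start, from the RefSeq table for GRCh38.p14, on the minus strand and written 5′ to 3′. Capitals mark the single motif match found, a hexamer bound by nuclear receptors. The promoters of HOXB13 and GRHL2 are not shown.
FOXA1 (chr14:37595250-37595499): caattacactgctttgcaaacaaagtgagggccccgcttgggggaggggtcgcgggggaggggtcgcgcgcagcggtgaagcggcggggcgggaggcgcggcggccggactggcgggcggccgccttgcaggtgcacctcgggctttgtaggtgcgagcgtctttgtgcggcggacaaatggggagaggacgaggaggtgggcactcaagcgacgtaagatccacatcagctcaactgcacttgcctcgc
SPDEF (chr6:34556330-34556579): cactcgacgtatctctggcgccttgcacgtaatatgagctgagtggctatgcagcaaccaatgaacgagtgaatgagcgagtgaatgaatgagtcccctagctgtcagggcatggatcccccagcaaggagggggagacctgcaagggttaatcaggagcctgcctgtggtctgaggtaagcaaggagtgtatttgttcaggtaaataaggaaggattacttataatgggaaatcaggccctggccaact
GATA2, upstream of its 2 starts in the table (chr3:128493202-128493451): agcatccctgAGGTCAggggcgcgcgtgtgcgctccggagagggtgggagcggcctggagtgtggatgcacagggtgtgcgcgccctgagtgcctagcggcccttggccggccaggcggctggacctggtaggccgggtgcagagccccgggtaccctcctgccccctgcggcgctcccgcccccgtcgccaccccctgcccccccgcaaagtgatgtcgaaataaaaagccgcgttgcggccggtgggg
The FOXA1 window held 67.2% G and C and the GATA2 window 72.8%, above the median of 58.0% over the 35116 windows of the table. The SPDEF window, at 50.8%, was below it.

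10 motifs were searched on both strands as exact letters. Of the 35116 windows of the same length, 2.98% held the forkhead motif TGTTTAC, 9.17% the GATA motif AGATAA and 3.66% CAATAAA, a HOXB13 motif. The ETS motif CCGGAAG was in 8.52% and the grainyhead motif AACNGGTT in 1.49%. The nuclear receptor hexamer AGGTCA was in 12.1% and the steroid receptor hexamer AGAACA in 12.4%. The ATF4 and CHOP motif TGATGNAA was in 3.14%, the AP-1 motif TGANTCA in 6.57% and the E2F motif TTTCCCGC in 1.39%. None of the 10 was found in the FOXA1 or SPDEF window or at the second GATA2 start. The GATA2 window above held AGGTCA at positions -240 to -235 from the start. A match describes letters in a window and shows no binding.

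Levels are RPKM in the SR2211 experiment and FPKM in the other two, that is reads or fragments scaled for gene length and for mapped depth, so genes can be compared within a library. The tables were normalised separately, and levels across experiments are set side by side. FOXA1 was the highest of the 5 in every vehicle library and stood among the top 1.93%, 2.83% and 2.51% of listed genes in the SR2211, XY011 and ENZ experiments. GRHL2 or GATA2 was the lowest. The vehicles differed among themselves by 2.17 times for FOXA1 and 2.64 times for GATA2, and by 1.25 times for HOXB13, 1.60 times for SPDEF and 1.29 times for GRHL2. In log2 units the vehicle range was 1.11 for FOXA1 and 1.38 for GATA2. Differences between experiments of that size came without any compound, so each change below is taken within an experiment. It is written as log2((treated + 1)/(vehicle + 1)), and a gene is called at 1 or more in either direction among genes with a value of at least 1. With 1 library per group this rule has no p-value and no replicate check.

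**Figure D1:**
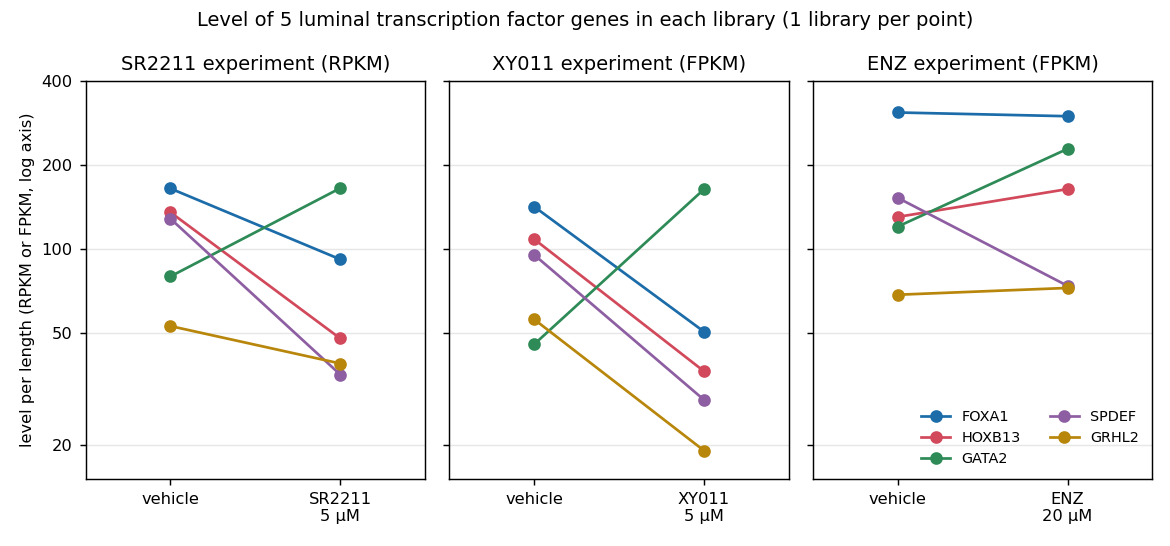
Level of each gene (RPKM or FPKM, log axis) in the vehicle and treated library of each experiment, 1 library per point. GATA2 goes from 79.9 to 165 with SR2211 and from 45.6 to 164 with XY011 and ends above the other 4 genes in both, while FOXA1 stays the highest with ENZ, at 299.

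FOXA1, the pioneer factor, stood at 165 RPKM in the vehicle and 92.0 with SR2211, at 142 and 50.7 FPKM in the XY011 experiment, and at 309 and 299 FPKM in the ENZ experiment. It was lower with SR2211 and with XY011 and nearly level with ENZ. The log2 changes were -0.84 with SR2211, -1.47 with XY011 and -0.04 with ENZ, so XY011 alone passed the rule on size. Of all genes tested, 8.80% were as far down with SR2211 and 4.93% with XY011, and among genes with a vehicle value of at least 50 the shares were 17.0% and 8.12%. Here the change with SR2211 is smaller than the range of 1.11 between vehicles, which spans separately normalised tables and is no error of a change within a pair. The SR2211 and XY011 vehicles differed by 0.214 in log2 units. In the SR2211 pair the smallest whole reads that give both RPKM values were 2297 and 1275, a ratio of 0.558 with an exact binomial 95% interval of 0.520 to 0.597. This interval, like those below, covers counting error only and rests on reads recovered without an annotated length, so the true numbers can be multiples of these. FOXA1 lies head to head with TTC6 on the other strand, and their reads cannot be told apart where the 2 genes overlap, since counting by strand is not given in the sources used here. TTC6 was listed in the ENZ table alone, at 24.1 and 20.3 FPKM.

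HOXB13, the posterior homeobox factor, stood at 136 and 47.9 RPKM in the SR2211 experiment, at 109 and 36.6 FPKM in the XY011 experiment, and at 131 and 164 FPKM in the ENZ experiment. Levels with SR2211 and XY011 were about a factor of 3 under their vehicles (ratios 0.353 and 0.336), and the ENZ library was above its vehicle (ratio 1.26). The log2 changes were -1.48, -1.55 and 0.33. The first 2 differ by 0.065, the least of the 5 genes. Recovered reads were 3388 and 1192 in the SR2211 pair, with an interval of 0.331 to 0.378 for the ratio. Of all genes tested, 1.39% were as far down with SR2211 and 4.02% with XY011, and among genes with a vehicle value of at least 50 the shares were 4.04% and 7.06%. With ENZ the rise was not called, and 22.3% of all genes tested rose by as much.

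GATA2, the zinc finger factor, stood at 79.9 and 165 RPKM in the SR2211 experiment, at 45.6 and 164 FPKM in the XY011 experiment, and at 120 and 229 FPKM in the ENZ experiment. All 3 treated libraries, at 164 to 229, were above all 3 vehicles, at 45.6 to 120. Of the 11967 genes that all 3 tables list and whose mean was 1 or more, 5.52% showed such a gap upward. The log2 changes were 1.04, 1.82 and 0.92. The change with SR2211 and the one with ENZ are smaller than the range of 1.38 between the vehicles of different experiments, which again spans separately normalised tables. The SR2211 and XY011 vehicles differed by 0.795 in log2 units. Recovered reads were 2283 and 4706 in the SR2211 pair, a ratio of 2.07 with an interval of 1.97 to 2.18. Of all genes tested, 4.67%, 1.54% and 4.65% were higher by as much with SR2211, XY011 and ENZ. Among genes with a vehicle value of at least 50 the shares were 2.69%, 0.875% and 1.16%. GATA2 itself, at 45.6 in the XY011 vehicle, was outside that set in the XY011 experiment. GATA2-AS1, on the other strand of the same locus, was listed in no table, and its reads cannot be told apart from those of GATA2.

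SPDEF, the ETS factor, stood at 129 and 35.6 RPKM in the SR2211 experiment, at 95.6 and 28.9 FPKM in the XY011 experiment, and at 153 and 74.0 FPKM in the ENZ experiment. Its 3 treated libraries, at 28.9 to 74.0, were below all 3 vehicles, at 95.6 to 153, a gap downward that 7.35% of the 11967 genes showed. The log2 changes were -1.83, -1.69 and -1.04. SPDEF was the only one of the 5 genes past the rule in every experiment. Its call with ENZ sat at the threshold, and it was lost with a pseudocount of 5 (-0.999), with quantile scaling of the pair (-0.961) and with centring on genes with a vehicle value of at least 20 (-0.957). Recovered reads were 2019 and 556 in the SR2211 pair, a ratio of 0.277 with an interval of 0.251 to 0.304. Of all genes tested, 0.510%, 3.07% and 4.24% were as far down with SR2211, XY011 and ENZ, and among genes with a vehicle value of at least 50 the shares were 1.60%, 5.81% and 3.30%.

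GRHL2, the grainyhead factor, stood at 53.1 and 39.0 RPKM in the SR2211 experiment, at 56.2 and 19.0 FPKM in the XY011 experiment, and at 68.7 and 72.7 FPKM in the ENZ experiment. Only the XY011 library was far from its vehicle. The log2 changes were -0.44, -1.51 and 0.08. The change with SR2211 and the one with XY011 differed by 1.08, the widest gap of the 5 genes, at the same dose and time. With 1 library each that gap has no test. Recovered reads were 2277 and 1665 in the SR2211 pair, a ratio of 0.735 with an interval of 0.689 to 0.783. Of all genes tested, 24.9% were lower by as much with SR2211 and 4.39% with XY011, and among genes with a vehicle value of at least 50 the shares were 37.7% and 7.38%.

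Counted over the 5, 1 gene was called higher and 2 lower with SR2211, where 5.10% and 5.75% of 12154 tested genes were called in those directions. With XY011, 1 was higher and 4 lower, beside 7.58% and 13.2% of 12620 genes. With ENZ, none was higher and 1 was lower, beside 3.67% and 4.66% of 19250 genes. The median change of the 5 was -0.84 with SR2211, -1.51 with XY011 and 0.08 with ENZ, while that of all tested genes was -0.07, -0.15 and -0.02. Genes with a high vehicle value were called lower more often than higher in these pairs. They are picked by the same value that each change is taken against, so a downward lean can come from the choice itself. The shares given above for such genes carry the same limit. Among genes with a vehicle value of at least 50, 11.9% were called lower and 2.95% higher with SR2211, 18.6% and 2.94% with XY011, and 3.36% and 0.975% with ENZ. When the SR2211 pair was centred on its median gene, the share of calls that were higher went from 47.0% to 56.0%, and quantile scaling of the XY011 pair moved it from 36.5% to 49.6%. No call of the 5 genes with SR2211 or XY011 changed under the other pseudocounts and scalings run. In bulk RNA, fewer cells of a kind and less RNA per cell cannot be told apart.

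**Figure D2:**
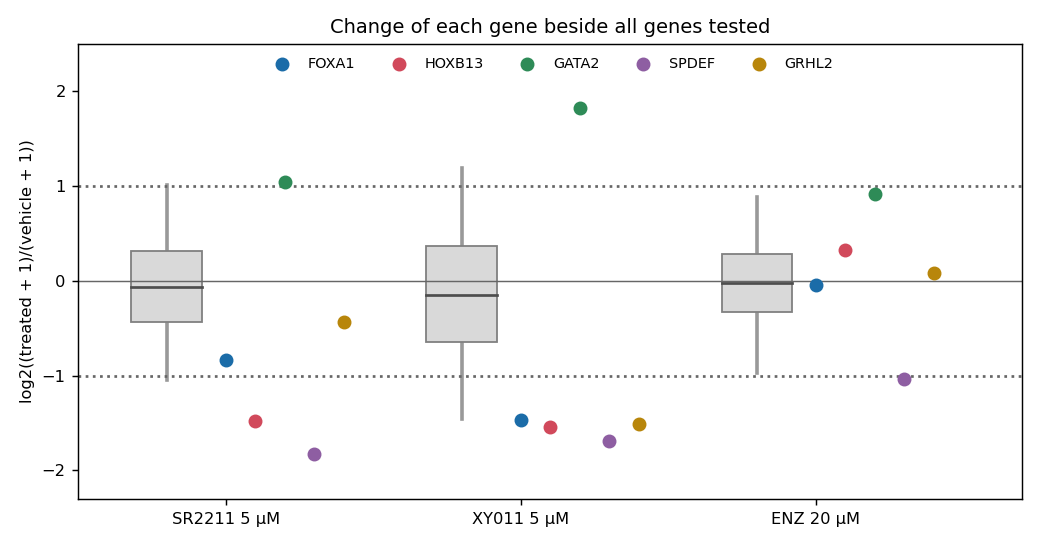
Change of each gene as log2((treated + 1)/(vehicle + 1)) by compound, beside all genes tested in that pair (box from the lower to the upper quartile with the median line, grey line from the 5th to the 95th percentile, dotted lines at the call of 1). With XY011 all 5 points lie past the dotted lines, with SR2211 3 do, and with ENZ SPDEF alone does, at -1.04.

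The order of the levels within a library changed with the compounds. In the vehicle of the SR2211 experiment it ran FOXA1, HOXB13, SPDEF, GATA2 and GRHL2, and with SR2211 it ran GATA2, FOXA1, HOXB13, GRHL2 and SPDEF. In the XY011 experiment the vehicle ran FOXA1, HOXB13, SPDEF, GRHL2 and GATA2, and the treated library GATA2, FOXA1, HOXB13, SPDEF and GRHL2. In the ENZ experiment the vehicle ran FOXA1, SPDEF, HOXB13, GATA2 and GRHL2, and the treated library FOXA1, GATA2, HOXB13, SPDEF and GRHL2. Neighbours such as HOXB13 and SPDEF in the SR2211 vehicle (136 and 129 RPKM), or SPDEF and GRHL2 with ENZ (74.0 and 72.7 FPKM), are close, and without replicates their order has no error to be judged by. The level of GATA2 divided by that of FOXA1 went from 0.484 to 1.80 with SR2211, from 0.321 to 3.23 with XY011 and from 0.390 to 0.764 with ENZ. GATA2 made up 14.2% of the summed level of the 5 genes in the SR2211 vehicle and 43.5% with SR2211. The share was 10.2% and 54.8% in the XY011 experiment, and 15.4% and 27.3% in the ENZ experiment. The summed level itself was 562 and 380 RPKM with SR2211, 448 and 299 FPKM with XY011, and 781 and 839 FPKM with ENZ.

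The main test treats SR2211 and XY011 as 2 replicates of a class, each against its own vehicle, with ENZ apart. It has 1 residual degree of freedom, so its error is the spread between the responses to 2 different compounds, with a prior borrowed across 11967 genes. In this limma fit on log2(value + 1), SPDEF fell by 1.76 (SE 0.19, adjusted p = 0.005746) and HOXB13 fell by 1.51 (SE 0.19, adjusted p = 0.007539). FOXA1 fell by 1.15 (SE 0.23, limma adjusted p = 0.01993). GATA2 rose by 1.43 (SE 0.25, limma adjusted p = 0.01366). All 4 had the same direction in both experiments. GRHL2 had a class change of -0.97 (SE 0.29) and missed the threshold in limma (adjusted p = 0.05358), and it passed with a pseudocount of 5 (0.04609), with centred libraries (0.02466) and with a trend in the prior (0.0166). Over all genes, 9.42% rose and 13.7% fell in this fit, so the 3 of 5 that fell and the 1 of 5 that rose are read against a broad response. With a pseudocount of 0.1 the fit called 0 of the 11967 genes, though 4113 had an unadjusted p under 0.05, and the 5 genes had adjusted p-values of 0.067 to 0.144 in limma.

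No difference between the class and ENZ passed for any of the 5 genes. The same limma fit gave class minus ENZ as -1.84 (SE 0.33, adjusted p = 0.1707) for HOXB13 and -1.11 (SE 0.40, adjusted p = 0.2759) for FOXA1. It gave -1.05 (SE 0.50, limma adjusted p = 0.3571) for GRHL2, -0.72 (SE 0.34, limma adjusted p = 0.3519) for SPDEF and 0.51 (SE 0.43, limma adjusted p = 0.5764) for GATA2. Unadjusted p-values in limma were 0.001193 for HOXB13 and 0.02947 for FOXA1, and above 0.05 for the other three. Of all genes, 0.0167% passed as higher and 0.0167% as lower, while 1902 had an unadjusted p under 0.05. HOXB13 passed when libraries were centred on the median gene (limma adjusted p = 0.0424) and with a trend in the prior (limma adjusted p = 0.01704). Its change in the ENZ pair had the opposite sign but was too small to be called. Doses were 5 µM in the class and 20 µM for ENZ, so the values make no comparison of potency. A class effect and the difference in dose, read layout and table cannot be told apart.

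Of 29 paralogs of the 5 genes listed, 16 could be fitted, of which 2 rose and 2 fell in limma. Over all genes 9.42% rose and 13.7% fell, so the paralogs were near that share, with a median class change of -0.17 beside -0.10 for all genes. ELF3, an epithelial ETS factor and a relative of SPDEF, stood at 2.43 and 19.9 RPKM in the SR2211 experiment, 1.91 and 26.5 FPKM in the XY011 experiment, and 11.9 and 26.4 FPKM in the ENZ experiment. It rose by 2.92 in the class (SE 0.23, limma adjusted p = 0.003287), against the direction of SPDEF. ELF5, another ETS factor of glandular epithelia, stood at 19.5 and 7.95 RPKM, 17.2 and 5.78 FPKM, and 17.7 and 11.3 FPKM in the same order, and fell by 1.31 (SE 0.20, limma adjusted p = 0.01036). EHF, the ETS relative with the highest level, stood at 284 and 117 RPKM with SR2211, 247 and 215 FPKM with XY011, and 253 and 186 FPKM with ENZ, and did not pass (limma adjusted p = 0.109). HOXC13 rose by 0.73 (limma adjusted p = 0.04363), and HOXD13, named after its value was seen, fell by 0.83 (limma adjusted p = 0.04096), both at levels under 18. GRHL1 had a class change of -0.34 (limma adjusted p = 0.4905), with 3.99 and 5.50 RPKM in the SR2211 pair and 4.54 and 1.66 FPKM in the XY011 pair. No FOXA or GATA relative other than GATA6, which stayed under 4, reached 1 in any library. ELF1, ELF2, ELF4, ETV6, GABPA, ELK1 and ELK4, other ETS genes with a value of at least 5, did not pass.

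HOXB13 lies at the posterior end of the HOXB cluster, beside the small prostate genes PRAC1 and PRAC2. Of 11 other genes of the locus, 6 could be fitted, and 2 rose and 1 fell in limma, beside 9.42% and 13.7% of all genes. PRAC1 stood at 23.9 and 44.7 RPKM in the SR2211 experiment, 35.1 and 68.7 FPKM in the XY011 experiment and 81.0 and 155 FPKM in the ENZ experiment. It was higher in every treated library by nearly the same log2 amount (0.88, 0.95 and 0.93), and it rose in the class (limma adjusted p = 0.02328), opposite to HOXB13. PRAC2 stood at 12.3 and 6.73 RPKM, 8.42 and 0.49 FPKM, and 16.5 and 24.4 FPKM, with the signs of HOXB13 in all 3 experiments, and fell by 1.72 in the class (SE 0.42, limma adjusted p = 0.03214). PRAC2 lies on the other strand directly next to HOXB13, so reads at their shared edge cannot be assigned by strand. HOXB9, an anterior neighbour in the cluster, stood at 3.33 and 16.6 RPKM, 3.91 and 11.9 FPKM, and 4.28 and 4.99 FPKM, and rose by 1.71 (SE 0.23, limma adjusted p = 0.008054). HOXB7, at 2.62 to 7.23 in all libraries, and HOXB6, at 0.40 to 3.25, did not pass (limma adjusted p = 0.4924 and 0.1359).

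Genes linked in the literature to GRHL2 or SPDEF are given as 2 lists. Of 14 epithelial genes known as GRHL2 targets, 5 rose and 1 fell in the limma class fit and their median change was 0.55. Over all genes 9.42% rose and 13.7% fell in that fit, with a median of -0.095. CDH1, the E-cadherin of epithelial junctions, stood at 117 and 246 RPKM with SR2211, 111 and 276 FPKM with XY011 and 193 and 204 FPKM with ENZ, and rose by 1.18 (SE 0.20, limma adjusted p = 0.01301). ESRP1, an epithelial splicing regulator, stood at 36.6 and 109 RPKM, 32.2 and 134 FPKM, and 38.3 and 43.6 FPKM, and rose by 1.79 (SE 0.21, limma adjusted p = 0.006306). Both were near their vehicle with ENZ. The others that rose were ELF3, the protease PRSS8 and the tight junction gene CLDN7. CLDN7 is named after its value was seen.

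Of 16 secretory genes linked to SPDEF, 9 could be fitted, of which 3 fell and 1 rose, with a median of 0.04 in the limma class fit. Over all genes 13.7% fell and 9.42% rose in that fit. AGR2, a protein disulphide isomerase of secretory cells, stood at 63.7 and 11.3 RPKM with SR2211, 35.2 and 1.34 FPKM with XY011 and 314 and 61.0 FPKM with ENZ, and fell by 3.17 (SE 0.36, limma adjusted p = 0.005942). ST6GALNAC1, a sialyltransferase, stood at 61.6 and 7.49 RPKM, 105 and 10.4 FPKM, and 185 and 39.1 FPKM, and fell by 3.05 (SE 0.20, limma adjusted p = 0.002294). CREB3L4, a secretory pathway factor, was the third that fell (-2.17, limma adjusted p = 0.006306). XBP1, a factor of the unfolded protein response, rose by 0.91 (limma adjusted p = 0.02879). AGR2, ST6GALNAC1, CREB3L4 and GALNT7 were below their own vehicle in all 3 experiments, as SPDEF was. XBP1 and SEC24D were above theirs in all 3, SEC24D by 0.48, 0.68 and 0.37 in log2 units. GALNT7 and SEC24D are named after their values were seen.

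Among 30 fitted genes of a list of other prostate epithelial transcription factors, 3 rose and 9 fell, with a median of -0.11 in limma. Over all genes 9.42% rose and 13.7% fell, with a median of -0.095. MAF fell by 2.00 (limma adjusted p = 0.008721) and RUNX1 fell by 1.63 (limma adjusted p = 0.01262), both from low levels. MAF went from 5.91 to 1.46 RPKM with SR2211 and from 5.74 to 0.19 FPKM with XY011. RUNX1 went from 1.95 to 0.32 RPKM and from 3.72 to 0.10 FPKM. ID1, ID3 and XBP1 were the 3 that rose. MAF had a log2 change of -2.94 with ENZ, where FOXA1, HOXB13 and GRHL2 changed by 0.33 or less in size.

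**Figure D3:**
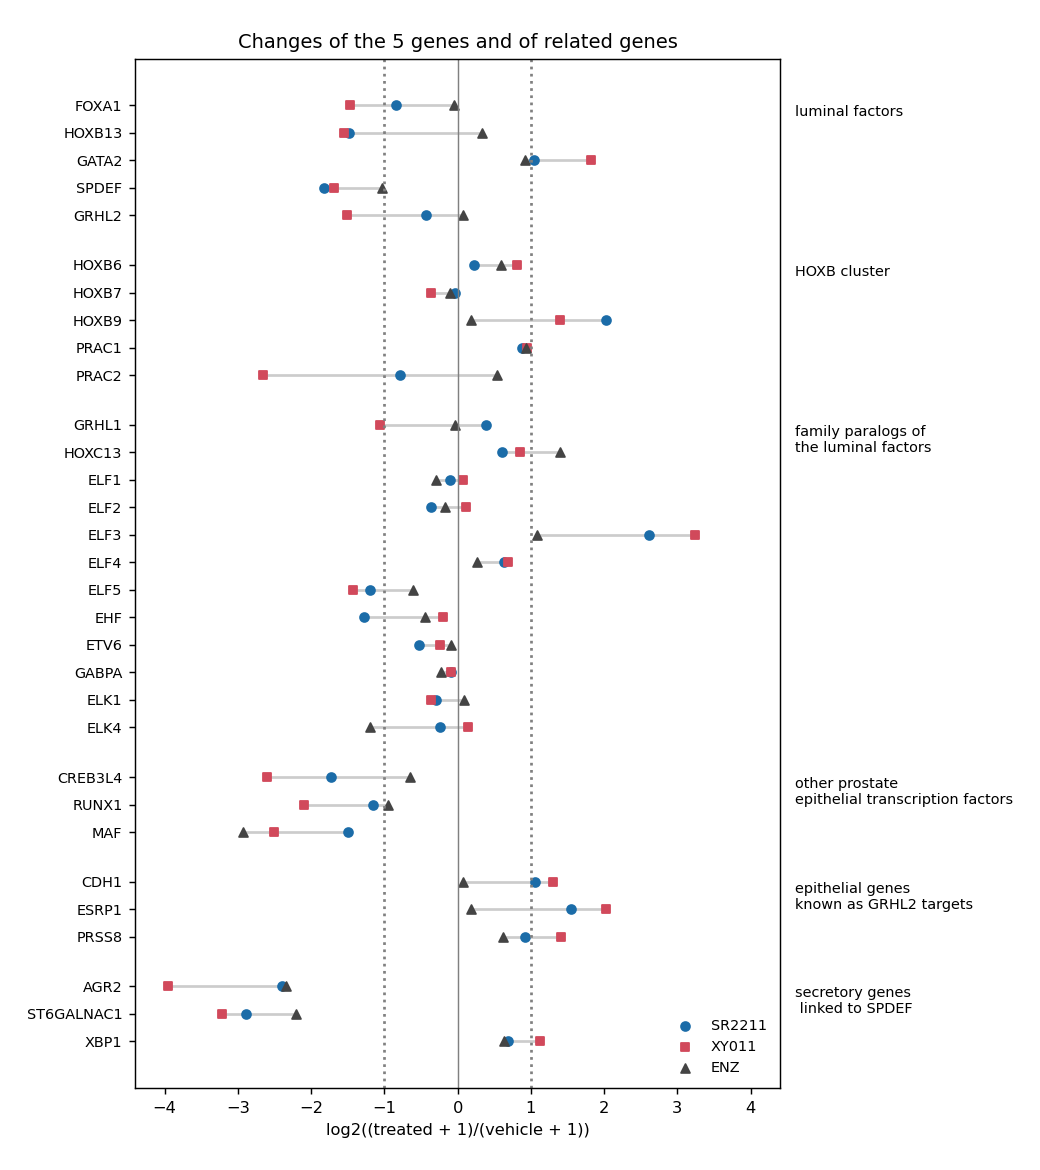
Change of the 5 luminal factors and of related genes, as log2((treated + 1)/(vehicle + 1)) for SR2211 (circles), XY011 (squares) and ENZ (triangles), 1 pair of libraries per point, with dotted lines at -1 and 1; a gene of several lists is drawn once. ELF3, ESRP1 and CDH1 lie to the right while SPDEF, AGR2 and ST6GALNAC1 lie to the left, and HOXB13 with ENZ (0.33) lies on the other side of 0 from HOXB13 with SR2211 and XY011.

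The luminal label was checked against cell markers. KRT8, a keratin of luminal cells, stood at 105 to 216 in all 6 libraries, and EPCAM at 32.8 to 73.1. Other luminal markers moved. Of 16 fitted, 2 rose and 5 fell in limma, beside 9.42% and 13.7% of all genes. KRT18 (-0.755, limma adjusted p = 0.03743), KRT19 (-1, 0.01821) and MSMB (-0.949, 0.02801) were among the 5 that fell. KRT19 and MSMB had vehicle levels of only 0.62 to 2.42 in the SR2211 and XY011 experiments. CDH1 and CLDN7 were the 2 that rose. The summed level of the 16 was 1995 and 1666 RPKM with SR2211, 2006 and 1511 FPKM with XY011 and 3036 and 2540 FPKM with ENZ. TP63, KRT15 and KRT6A, which define basal cells, were listed in no table, and KRT5 was listed in the ENZ table alone, at 1.10 and 0.55. The summed level of 9 basal markers was 3.70 to 26.1 over the 6 libraries. In the ENZ experiment it was 11.8 and 26.1, with ITGB4 at 5.51 and 19.5. TRIM29 rose in the class (1.17, limma adjusted p = 0.01301), from 0.24 to 1.94 with SR2211 and from 0.07 to 1.29 with XY011, and KRT14 fell (-1.002, limma adjusted p = 0.02054). Of 10 mesenchymal markers, ZEB2 and CDH2 were listed in no table, ZEB1 was at 0.30 or less, and VIM rose in the class (limma adjusted p = 0.02614) from 4.71 and 5.26 to 10.8 and 9.62. FN1, at 22.0 to 67.5, COL1A1, at 2.00 to 34.8, and SNAI1, at 1.95 to 5.80, did not pass (limma adjusted p = 0.8965, 0.09195 and 0.4815). The summed level of 11 neuroendocrine markers was 3.61 to 16.7, with INSM1 and NEUROD1 unlisted, and ENO2 rose in the class (0.90, limma adjusted p = 0.02566), from 1.76 to 3.74 with SR2211 and from 0.93 to 2.91 with XY011. CD3E and HBB, of blood cells, were unlisted, and PTPRC stood at 0.18 or less in the one table that lists it. CD68, the only 1 of 8 blood and endothelial markers that could be fitted, stood at 4.43 to 13.1 in all 6 libraries. It did not pass (limma adjusted p = 0.2076). The part of the markers that moved in the changes of the 5 genes was not tested.

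For each of the 5, the 3 genes with the most similar changes over the 3 experiments were found among 7626 genes with a vehicle value of at least 5 in each, by the root mean square distance between changes. For FOXA1 they were CDKN2AIPNL (0.044), HEXIM1 (0.066) and IRX4 (0.067). For GRHL2 they were EID2 (0.021), SMAGP (0.080) and CPT2 (0.082). For GATA2 they were PHGDH (0.089), STC2 (0.118) and GRAMD1A (0.179), and for SPDEF they included SAP30 (0.147) and GCNT1 (0.155). HOXB13 had the most distant nearest genes, NCEH1 (0.180), CHRNA5 (0.190) and NETO1 (0.228). NCEH1 changed by -1.29, -1.54 and 0.08, so it was closer to HOXB13 with XY011 than with ENZ. Each distance rests on 3 pairs of libraries.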

How the data were processed

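Per the labels' protocols, poly(A) RNA went into TruSeq libraries, and the ENZ pair was read paired-end. Values of the SR2211 experiment are RPKM and those of the other 2 experiments FPKM, computed by the authors and deposited per gene. Per the submitters' processing notes, Bowtie, BWA, Cuffdiff and Cufflinks were used, with hg19 and GRCh37 as builds. Not given in the sources used here are versions, annotation and strand handling. Genes were joined by Entrez identifier or, for ENZ, by current or unambiguous older symbol (13469 in all 3 tables). Small RNA genes were left out of tests. Depth read back from microRNA genes was 8.20 M and 8.16 M mapped reads in the SR2211 pair (100% of 17 and 96.2% of 26 genes whole within 0.01 read) and is unknown elsewhere. Reads of the 5 genes were found by scanning lengths of 200 to 12000 bases within 0.001 read, since no GENCODE length gave whole reads in both libraries.

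Tests used limma 3.58.1 in R 4.3.3 with experiment as a block (prior of 5.415 degrees of freedom, SD 0.2094), among genes with a mean of 1 or more, and Benjamini-Hochberg adjustment at 0.05. The code was tested on simulated data. Tables were made with Python 3.11.15. No source says whether cultures were separate within an experiment, and p-values measure the spread between these samples. Named genes are the 5, the 3 nearest to each, the 4 of each list with the largest mean absolute change, genes of the HOXB cluster and the paralogs with a value of at least 5, and the chromosomal neighbours. Some genes under this rule are not reported here. Genes, lists and rules were chosen with earlier results of these data known. Pseudocounts, scalings, filters and model options were varied.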

Additional observations from a re-analysis of the deposited data

How the results depend on the processing

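With 1 library per group, no replicate could be left out: without SR2211 or XY011 the class value is the change of the other compound, with no residual degree of freedom. The experiment block pairs each treated library with its own vehicle, and there is no other pairing. Of 105 alternatives for the 5 genes within an experiment, 100 kept call and direction. The filter alternatives (a value of 5 or more, and no filter) could not alter the values of these genes. Their agreement was fixed in advance, and only the pseudocounts and scalings could change a call. With ENZ, the number of the 5 that were called went from 1 to 0 with a pseudocount of 5 and with quantile scaling. Centring on genes with a vehicle value of at least 20 gave SPDEF -0.957 (call lost), GATA2 1.000 (call gained) and FOXA1 0.037 with ENZ. In the class fit, 4 of the 5 passed, 0 with a pseudocount of 0.1, and 1 (SPDEF, limma adjusted p = 0.04801) with all 3 compounds as a class, where 30 genes rose and 69 fell of 11967. Of 40 alternatives for the class changes of the 5, 30 kept their side of the threshold, 7 lost the call and 3 gained it, and 0 changed sign. Between the class and ENZ, 1 of the 5 (HOXB13) passed with centring, where 122 genes were higher and 55 lower, and 1 (HOXB13) with a trend (48 and 22). The cause was not tested. Calls over all genes depended on the pseudocount: with 0.1 and 5, SR2211 had 965 and 256 higher and 1053 and 301 lower against 620 and 699, XY011 had 1313 and 394 higher and 2286 and 666 lower against 957 and 1663, and ENZ had 1309 and 184 higher and 1453 and 272 lower against 707 and 898. Centring on genes with a vehicle value of at least 20 gave 1001 higher and 404 lower with SR2211, 1603 and 1084 with XY011. Those genes too are picked by the value that each change is taken against. Centred libraries gave 1710 higher and 1797 lower in the class fit, against 1127 and 1643. Read ratios do not depend on the length taken.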

Other observations

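Coregulators of FOXA1, GATA2 and HOXB13 were few among the called genes. Of 15 found by name in the limma class fit, 1 rose and 1 fell, beside 9.42% and 13.7% of all genes. KDM1A, with values in all 6 libraries, is missing from these 15, so its class change is not given. Its log2 changes were -0.66 with SR2211, -0.54 with XY011 and -0.11 with ENZ. MEIS1, a homeobox partner of HOXB13, fell by 1.20 (SE 0.25, limma adjusted p = 0.02207) from vehicle levels of 1.14 and 2.04. TLE3, a corepressor bound by FOXA1, stood at 37.1 and 25.1 RPKM with SR2211, 19.8 and 22.8 FPKM with XY011 and 111 and 238 FPKM with ENZ, and did not pass (limma adjusted p = 0.6108).

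Listed genes on either side of FOXA1, GATA2 and SPDEF on the chromosome, in most cases with unlisted genes between, did not reach a log2 change of 1 in any pair. RPN1, on one side of GATA2, had log2 changes of -0.62, -0.73 and -0.57 with SR2211, XY011 and ENZ, and EEFSEC on the other side had -0.47, -0.52 and 0.02. PACSIN1 and ILRUN, on the sides of SPDEF, had 0.01 and -0.20 with SR2211 and 0.70 and -0.10 with XY011. MIPOL1 and SEC23A, on the sides of FOXA1, had -0.30 and 0.31 with SR2211 and -0.64 and 0.93 with XY011. TTLL6, on one side of HOXB13, and NCALD, on one side of GRHL2, were at 1.30 or less in all 6 libraries.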
